A study of Mus musculus with 12 samples.

Results

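The genes described here encode the enzymes of glycolysis and a set of other genes that cells induce when oxygen is short. They were chosen by name as a list of 40 genes, made of 19 glycolytic enzymes and 21 other hypoxia genes, and were found by matching the symbols of the array's annotation. Of the 40, 38 were measured (17 glycolytic enzymes and all 21 others), on 86 array features, among 16549 genes measured in all. Gpi1 and Eno1 were not analysed here. The samples were cells of the mouse liver lines AML12 and Hepa 1-6, in 6 groups of 2 arrays that the series design calls biological replicates. AML12 derives from hepatocytes of TGF-alpha transgenic mice and Hepa 1-6 from a hepatoma, although the labels give hepatoma as the source of both. The maintenance medium of AML12 also held dexamethasone and insulin. Cells of all groups, controls included, spent the night without serum and additives. Controls then stayed serum-free, prolactin groups received 200 ng/mL of ovine pituitary prolactin, and actinomycin D groups received 10 µg/mL of actinomycin D, each for 8 h. Oxygen was not a variable of the design.

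Glycolysis breaks glucose down to pyruvate in the cytosol, and lactate dehydrogenase turns pyruvate into lactate and so lets the pathway run without oxygen. The hypoxia-inducible factors, HIF, pair an oxygen-regulated alpha subunit with the constant subunit ARNT. In normal oxygen, prolyl hydroxylases of the EGLN family mark the alpha subunits for destruction through the von Hippel-Lindau protein, and in low oxygen the factors accumulate and raise glycolytic enzymes, lactate exporters, angiogenic factors and genes of mitochondrial turnover. Liver cells use the pathway in both directions, since hepatocytes also make glucose. Prolactin is a pituitary hormone that signals through JAK2 and STAT5, and actinomycin D binds DNA and blocks transcription.

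HIF binds the short core ACGTG or GCGTG in DNA. The 250 bases before the annotated start were searched on both strands, with RefSeq sequences of the mouse build GRCm38.p6, in the 35 measured members that had an entry. Bnip3l, Ndrg1 and Epas1 had none. A core was present in 31 of the 35 members (88.6%) and in 11226 of all 27025 genes with a promoter entry (41.5%). Since genes can have several annotated starts, the same count by window was 37 of 49 member windows (75.5%) and 12679 of 32851 windows of all genes (38.6%). All 18 of the other hypoxia genes with an entry held a core, and 13 of the 17 glycolytic enzymes did. The 4 members with no match were Bpgm, Eno2, Tpi1 and Pgam2. The E-box CACGTG, which contains ACGTG, was present in 17.1% of the members and 6.86% of all genes. A match is a description of letters and not evidence of binding. The windows below belong to members on which the later values turn. Mgarp, Bnip3, Egln3 and Ankrd37 were among the strong risers under actinomycin D in AML12. Ldha is a lactate dehydrogenase gene. Bpgm is the member that prolactin raised in Hepa 1-6, a call that missed the threshold under 13 of 22 alternative settings. The choice does not follow the order of response. Pdk1 and Hk2, which are not shown, rose more in AML12 (2.44 and 2.24) than Ankrd37 (2.15). Pdk1 held 1 match and Hk2 held 2. In Hepa 1-6, Ankrd37 rose by only 0.42. Capitals mark ACGTG or GCGTG, or their reverse complements CACGT and CACGC, and overlapping matches run together. Each window is written 5′ to 3′ along the strand of its gene. They lie at chr3:51396548-51396797 (minus strand, Mgarp), chr7:138909507-138909756 (minus strand, Bnip3), chr12:54203875-54204124 (minus strand, Egln3), chr8:45999851-46000100 (minus strand, Ankrd37), chr7:46845554-46845803 (plus strand, Ldha) and chr6:34476106-34476355 (plus strand, Bpgm).
Mgarp: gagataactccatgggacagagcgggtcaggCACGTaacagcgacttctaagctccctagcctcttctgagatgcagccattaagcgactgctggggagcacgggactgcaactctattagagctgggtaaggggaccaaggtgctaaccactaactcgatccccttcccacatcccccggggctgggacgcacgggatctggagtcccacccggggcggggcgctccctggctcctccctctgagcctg
Bnip3: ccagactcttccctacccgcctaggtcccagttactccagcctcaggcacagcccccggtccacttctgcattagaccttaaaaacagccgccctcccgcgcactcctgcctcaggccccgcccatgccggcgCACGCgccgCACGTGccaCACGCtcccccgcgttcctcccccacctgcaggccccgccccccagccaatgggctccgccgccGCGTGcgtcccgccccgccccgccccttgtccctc
Egln3: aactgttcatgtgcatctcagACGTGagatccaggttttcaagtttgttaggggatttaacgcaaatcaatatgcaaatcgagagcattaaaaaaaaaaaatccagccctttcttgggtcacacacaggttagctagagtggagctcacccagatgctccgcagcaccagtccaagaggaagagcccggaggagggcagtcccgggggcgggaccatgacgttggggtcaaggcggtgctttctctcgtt
Ankrd37: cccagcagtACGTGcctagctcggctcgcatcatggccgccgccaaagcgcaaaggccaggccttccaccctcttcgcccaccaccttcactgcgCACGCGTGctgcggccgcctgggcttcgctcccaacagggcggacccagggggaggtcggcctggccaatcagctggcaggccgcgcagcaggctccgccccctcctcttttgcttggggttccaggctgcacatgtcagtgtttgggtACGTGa
Ldha: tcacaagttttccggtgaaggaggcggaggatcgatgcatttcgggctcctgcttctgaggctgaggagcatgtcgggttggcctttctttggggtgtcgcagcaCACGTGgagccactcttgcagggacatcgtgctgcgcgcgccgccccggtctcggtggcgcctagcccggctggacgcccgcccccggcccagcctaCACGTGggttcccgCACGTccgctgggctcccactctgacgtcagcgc
Bpgm: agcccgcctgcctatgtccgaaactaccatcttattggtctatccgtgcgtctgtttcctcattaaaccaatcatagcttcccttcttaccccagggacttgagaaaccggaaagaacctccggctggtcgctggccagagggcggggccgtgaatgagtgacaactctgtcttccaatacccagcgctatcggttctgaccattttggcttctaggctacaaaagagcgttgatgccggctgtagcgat
The Mgarp and Egln3 windows each held 1 match, Bnip3 and Ldha held 5, Ankrd37 held 4 and Bpgm held 0, with both strands counted.

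Values are log2 ratios of the sample over Universal Mouse Reference RNA (11 mouse cell lines pooled), so a ratio of 0 equals the reference and ratios are not compared between genes. Changes are differences of log2 ratios between groups of 2 arrays, with the standard error (SE) and the Benjamini-Hochberg adjusted p of limma over all 16549 genes. The words rose, fell and differed are kept for an adjusted p under 0.05. P-values set each change against the spread between replicate arrays, which was pooled over all 6 groups for each gene. The SE of a gene's change is therefore the same in both lines. Over the members, the AML12 actinomycin D replicates lay further apart (median absolute difference 0.266) than those of the other groups (0.059 to 0.104). Between 37397 and 40281 of 45018 features held a ratio per array. The correlation across genes between replicate arrays was 0.975 to 0.985, and the number of arrays limits the precision. Of 9 measured hepatocyte markers, 7 lay above the reference in AML12 controls and all 9 in Hepa 1-6 controls, whereas all 5 stellate or fibroblast markers, the 3 measured leukocyte markers, 3 of 4 endothelial markers and the 1 measured erythroid marker lay below it in both. Some of these markers moved with actinomycin D, as did 53.6% of all genes in AML12 and 50.9% in Hepa 1-6. Of the 9 hepatocyte markers, 3 rose and 2 fell in AML12, and 3 rose and 1 fell in Hepa 1-6. In AML12, 1 of the 3 leukocyte markers rose (by 1.20), no endothelial marker passed, and of the stellate or fibroblast markers 1 rose and 1 fell. In Hepa 1-6, 2 of the 4 endothelial markers, 1 leukocyte marker and 1 stellate or fibroblast marker rose, by up to 1.13. Their part in the results was not tested. Equal amounts of total RNA were labelled, so a rise is relative to the other transcripts on the array and cannot be told apart from a slower loss than theirs. In bulk RNA, fewer cells of a type and less RNA per cell cannot be told apart either.

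Actinomycin D raised most of the genes in both lines. In AML12, 33 of the 38 measured members were higher than in controls and 1 was lower, where 28.0% of all genes were higher and 25.5% lower (53.6% in either direction). In Hepa 1-6, 24 were higher and 6 lower, where 27.9% of all genes were higher and 23.0% lower (50.9% in either direction). The median change over the members was 1.12 in AML12 and 0.49 in Hepa 1-6, against 0.04 and 0.07 over all genes. In AML12, 21 members passed the test with at least a 2-fold rise, where 4.68% of all genes did. In Hepa 1-6, 9 did and 1 fell by at least 2-fold, where 5.41% and 4.59% of all genes did. The median change of the glycolytic enzymes was smaller than that of the other hypoxia genes. In AML12, 14 of 17 rose with a median change of 0.89 against 19 of 21 with a median of 1.39. In Hepa 1-6, 9 of 17 rose with a median of 0.32 against 15 of 21 with a median of 0.68. On each gene's feature of highest ratio, these medians were 0.88 against 1.25 in AML12 and 0.20 against 0.57 in Hepa 1-6. With the lowest 20% of mean ratios left out, they were 0.80 against 1.10 in AML12 and 0.42 against 0.68 in Hepa 1-6. That setting left 10 glycolytic enzymes and 7 other hypoxia genes. The difference between these 2 lists was not tested.

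**Figure D1:**
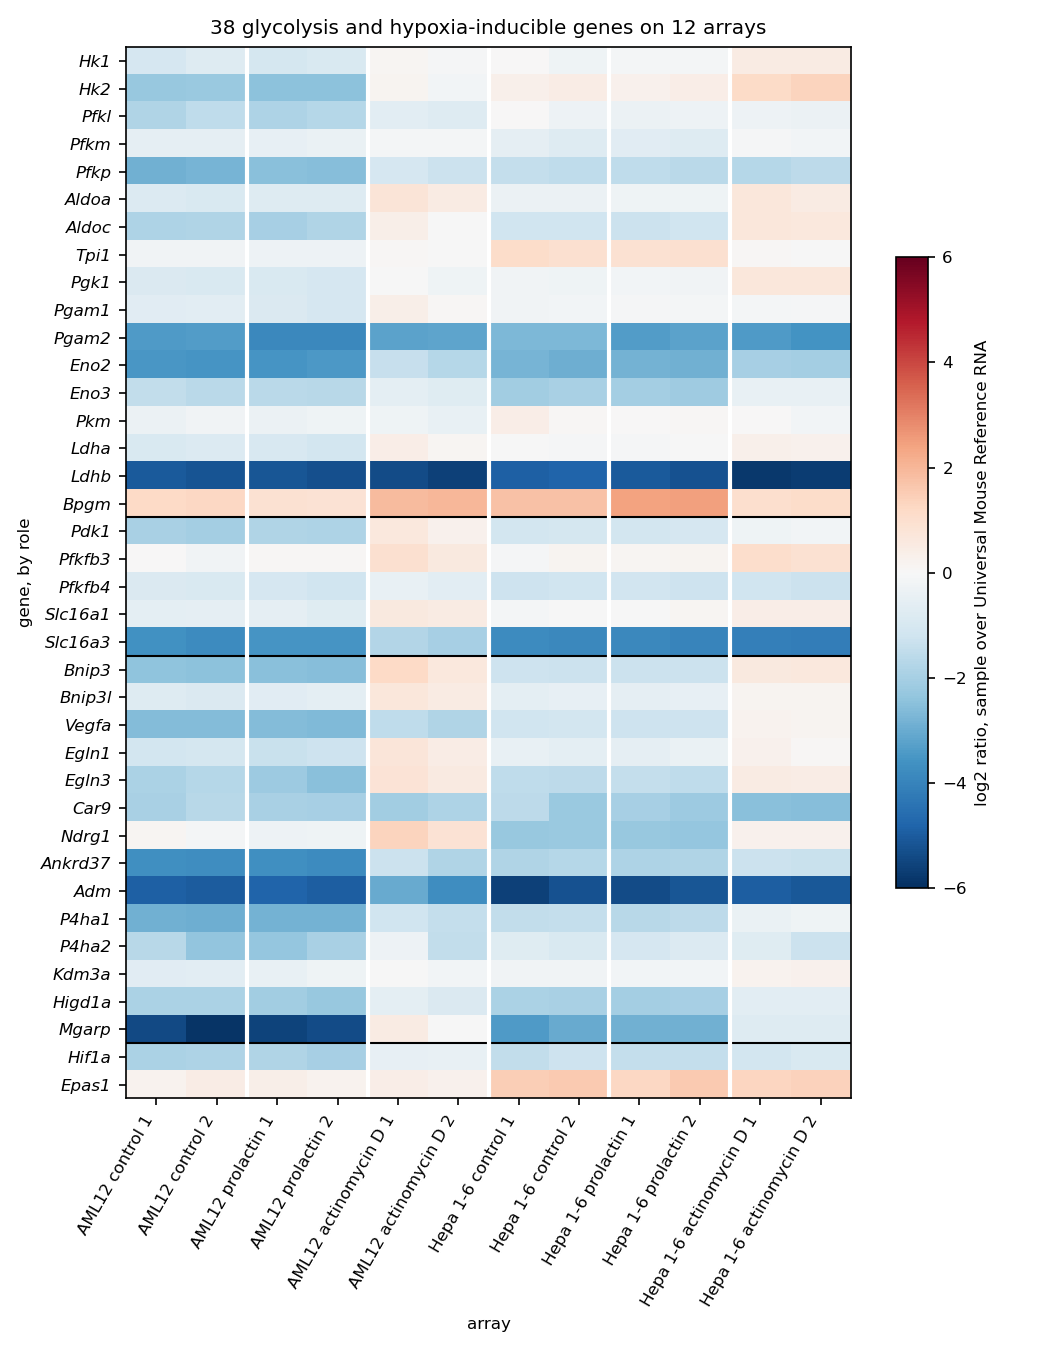
Log2 ratio to the reference (colour) of the 38 measured genes (rows, with lines between glycolytic enzymes, flux regulators and transporters, other HIF targets and HIF alpha subunits) on the 12 arrays (columns, white gaps between groups). The median over the genes lay at -1.73 and -1.64 on the AML12 control arrays and at -0.03 and -0.16 on the AML12 actinomycin D arrays, while prolactin columns look like the controls of their line.

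The largest changes belonged to HIF targets outside glycolysis, of which 13 of 14 rose in AML12 and 11 of 14 in Hepa 1-6, with medians of 1.49 and 0.91. Mgarp, which encodes a mitochondrial protein involved in mitochondrial transport, had log2 ratios of -5.41 and -5.88 in AML12 controls and 0.51 and -0.03 with actinomycin D. In Hepa 1-6 it went from -3.42 and -3.01 to -0.79 and -0.78. The treated arrays lay above every control array of their line. The rise was 5.89 ± 0.22 (SE, adjusted p = 6.25e-07), or 59.3-fold, in AML12 and 2.43 ± 0.22 (adjusted p = 6.49e-05) in Hepa 1-6. The AML12 controls were so low that they may lie near the detection floor, since no background marks were used.

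Bnip3, a receptor that directs mitochondria to autophagy, stood at -2.43 and -2.47 in AML12 controls and at 1.20 and 0.64 after actinomycin D. In Hepa 1-6 the ratios were -1.22 and -1.27 in controls and 0.59 and 0.63 in treated cells. All treated arrays of both lines were above the reference and all controls below it. Bnip3 rose by 3.38 ± 0.15 (adjusted p = 1.51e-06), which is 10.4-fold, and by 1.86 ± 0.15 (adjusted p = 4.12e-05), which is 3.63-fold. Its relative Bnip3l, with the same role, rose by 1.41 in AML12 and 0.69 in Hepa 1-6.

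Egln3, one of the prolyl hydroxylases that sense oxygen, went from -1.88 and -1.73 to 0.83 and 0.54 in AML12. In Hepa 1-6 it went from -1.50 and -1.55 to 0.51 and 0.46. Treated and control arrays did not overlap in either line, and the rises were 2.49 ± 0.14 (adjusted p = 3.69e-06) and 2.01 ± 0.14 (adjusted p = 1.75e-05). Egln1, the main oxygen sensor of the same family, rose by 1.67 in AML12 and by 0.68 in Hepa 1-6.

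Ankrd37, an ankyrin repeat gene known as a HIF target, had ratios of -3.69 and -3.72 in AML12 controls against -1.29 and -1.82 with the drug. In Hepa 1-6 the controls stood at -1.79 and -1.69 and the treated arrays at -1.29 and -1.35. Both lines ended at similar ratios from different starting levels. Ankrd37 rose by 2.15 ± 0.15 (adjusted p = 1.21e-05) in AML12. In Hepa 1-6 it rose by 0.42 ± 0.15 (adjusted p = 0.045). The Hepa 1-6 call missed the threshold under 13 of 21 alternative settings, with an adjusted p of up to 0.204.

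Ndrg1, a stress-responsive gene that is strongly induced by hypoxia, was the largest riser in Hepa 1-6. Its ratios there were -2.28 and -2.22 in controls and 0.27 and 0.28 after treatment, a rise of 2.52 ± 0.14 (adjusted p = 7.68e-06). In AML12 it went from 0.11 and -0.11 to 1.33 and 0.87, a rise of 1.10 ± 0.14 (adjusted p = 0.000304).

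The other members of this role gave smaller or split values. Vegfa, the angiogenic growth factor, rose by 0.91 in AML12 and 1.33 in Hepa 1-6. Its 12 features ranged from 0.30 to 1.03 in AML12 and from 0.48 to 1.51 in Hepa 1-6. P4ha1, a collagen prolyl hydroxylase subunit, rose by 1.58 and 1.13, Higd1a, a mitochondrial protein of the respiratory chain, by 1.17 and 1.29, and Kdm3a, a histone demethylase, by 0.58 and 0.45. Adm, the vasodilator adrenomedullin, rose by 1.56 in AML12 and stood at 0.40 (adjusted p = 0.164) in Hepa 1-6; its ratios were -4.88 and -4.98 in AML12 controls and -5.58 and -5.25 in Hepa 1-6 controls, where the detection floor may limit it. P4ha2, another subunit of the same enzyme family, rose by 1.12 ± 0.41 (adjusted p = 0.047) in AML12, and that call missed the threshold under 15 of 21 alternatives. Its 2 features disagreed, at 2.01 and 0.24 in AML12 and at 1.68 and -2.07 in Hepa 1-6. Car9, a carbonic anhydrase used as a clinical marker of hypoxia, stood apart from the rest. It did not pass in AML12 (-0.16, adjusted p = 0.524), and in Hepa 1-6 its ratios went from -1.58 and -2.21 to -2.51 and -2.57, a fall of 0.65 on the log2 scale (adjusted p = 0.025) that was lost without control 1 (adjusted p = 0.126), treated array 1 (adjusted p = 0.072) or treated array 2 (adjusted p = 0.094).

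**Figure D2:**
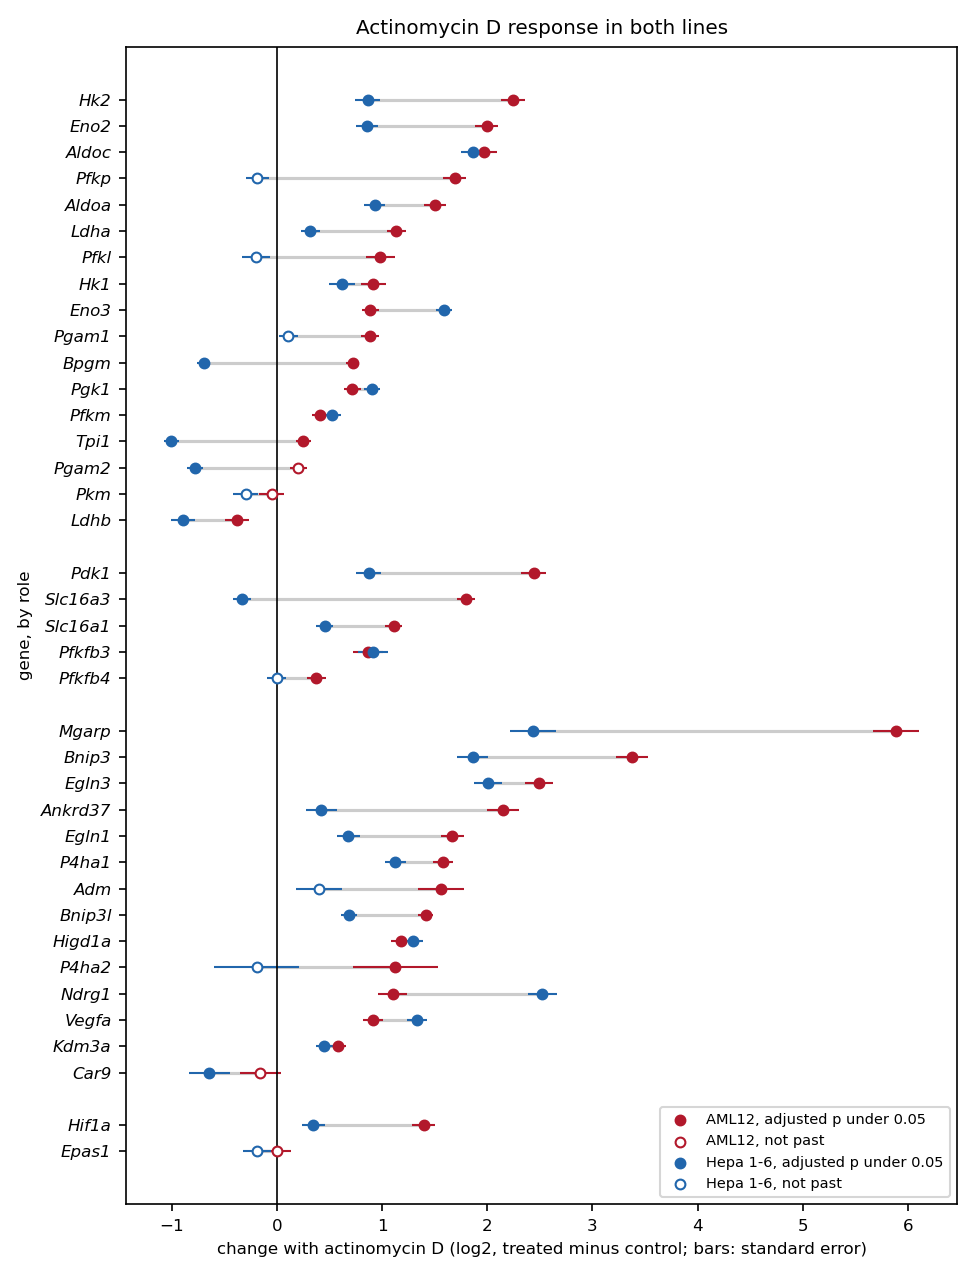
Change with actinomycin D (horizontal axis, log2, mean of 2 treated minus mean of 2 control arrays, bars the standard error) of each measured gene in AML12 (red) and Hepa 1-6 (blue), filled where the adjusted p was under 0.05, with genes by role. Mgarp at 5.89 in AML12 is the largest change, Ndrg1 and Eno3 moved more in Hepa 1-6, and Tpi1, Bpgm and Slc16a3 passed in opposite directions in the lines.

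Among the HIF alpha subunits, Hif1a, the subunit of the factor that drives most glycolytic genes, had mean ratios of -1.88 in AML12 controls and -0.48 with actinomycin D, a rise of 1.39 ± 0.11 (adjusted p = 2.7e-05). In Hepa 1-6 the means were -1.36 and -1.02, a rise of 0.35 ± 0.11 (adjusted p = 0.033) that was lost under 8 of 21 alternatives, with an adjusted p of up to 0.202 without Hepa 1-6 control 1. Epas1, which encodes the other main alpha subunit, did not pass in either line, at -0.00 (adjusted p = 0.998) and -0.19 (adjusted p = 0.274). Its 2 features pointed in opposite directions, at 0.76 and -0.76 in AML12 and at 0.87 and -1.24 in Hepa 1-6.

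The regulators of flux and the lactate transporters rose in AML12 in 5 of 5 cases, and in Hepa 1-6 in 3 of 5 with 1 fall. Pdk1 encodes a kinase that shuts off pyruvate dehydrogenase and so keeps pyruvate out of mitochondria. It had ratios of -1.92 and -2.04 in AML12 controls and 0.66 and 0.26 in treated cells, a rise of 2.44 ± 0.12 (adjusted p = 2.1e-06), and in Hepa 1-6 it went from -1.11 and -1.06 to -0.25 and -0.18, a rise of 0.87 ± 0.12 (adjusted p = 0.000526). Slc16a3, the lactate exporter of glycolytic cells, moved in opposite directions. In AML12 its ratios went from -3.62 and -3.75 to -1.78 and -2.00, a rise of 1.80 ± 0.09 (adjusted p = 2.03e-06). In Hepa 1-6 they went from -3.75 and -3.85 to -4.12 and -4.15, a fall of 0.33 on the log2 scale (adjusted p = 0.013). That call missed the threshold under 3 of 21 alternatives, with an adjusted p of up to 0.092. Leaving out Hepa 1-6 control 1 or treated array 2 were among these alternatives. The 2 lines thus began at similar ratios of this gene and ended apart. Slc16a1, which carries lactate and pyruvate in both directions, rose by 1.11 and 0.45. Pfkfb3, a bifunctional enzyme that makes an activator of phosphofructokinase, rose by 0.87 in AML12 and 0.92 in Hepa 1-6, while its relative Pfkfb4 rose by 0.37 in AML12 (lost without treated array 1, adjusted p = 0.057) and stood at -0.00 (adjusted p = 0.97) in Hepa 1-6.

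In the order of the pathway, the hexokinases that trap glucose in the cell rose in both lines. Hk2, the inducible hexokinase of tumours and muscle, had ratios of -2.28 and -2.21 in AML12 controls and 0.16 and -0.16 after the drug. Hepa 1-6 controls stood at 0.31 and 0.44 and treated arrays at 1.14 and 1.33. The lowest Hepa 1-6 control lay above the highest treated AML12 array. The rises were 2.24 ± 0.12 (adjusted p = 2.89e-06) and 0.86 ± 0.12 (adjusted p = 0.000517). Hk1, the widely expressed hexokinase, rose by 0.92 and 0.62 as the mean of 6 features, but not on its feature with the highest ratio (adjusted p = 0.161 and 0.623). Of the phosphofructokinase subunits, which form the committed step, the liver form Pfkl rose by 0.98 and the platelet form Pfkp by 1.69 in AML12, while in Hepa 1-6 they stood at -0.20 (adjusted p = 0.259) and -0.19 (adjusted p = 0.188). The 3 Pfkp features ranged from -0.92 to 1.09 in Hepa 1-6. The muscle form Pfkm rose by 0.41 in AML12 and 0.53 in Hepa 1-6.

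Aldolases split the sugar. Aldoc had ratios of -1.84 and -1.80 in AML12 controls and 0.34 and -0.03 in treated cells, and of -1.18 and -1.21 against 0.70 and 0.64 in Hepa 1-6. It rose by 1.97 ± 0.12 in AML12 and by 1.87 ± 0.12 (adjusted p = 1.38e-05) in Hepa 1-6. Aldoa rose by 1.50 in AML12 and 0.93 in Hepa 1-6. Triosephosphate isomerase, Tpi1, passed in opposite directions. Its ratios went from -0.23 and -0.23 to 0.06 and -0.02 in AML12, a rise of 0.25 ± 0.07 (adjusted p = 0.018; 0.068, 0.065 and 0.095 without control 1, control 2 or treated array 1), and from 1.10 and 0.95 to 0.08 and -0.03 in Hepa 1-6, a fall of 1.01 on the log2 scale (adjusted p = 2.05e-05). These means hide a disagreement between its 2 features: the one annotated with a RefSeq mRNA changed by 0.76 and 0.20 in AML12 and Hepa 1-6, and the other by -0.26 and -2.21. The direction of Tpi1 in either line therefore depends on the feature read.

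Further down the pathway, Pgk1, whose enzyme makes the first ATP, rose by 0.72 and 0.90. Its 11 features, all annotated with the same RefSeq mRNA, lay between 0.65 and 0.85 in AML12. Whether they are different probes was not examined. Pgam1, a phosphoglycerate mutase, rose by 0.88 in AML12 and stood at 0.11 (adjusted p = 0.356) in Hepa 1-6. The muscle mutase Pgam2 did not pass in AML12 (0.20, adjusted p = 0.061), and in Hepa 1-6 its ratios went from -2.71 and -2.70 to -3.39 and -3.59, a fall of 0.78 on the log2 scale (adjusted p = 0.000116). The measured enolases, which do not include Eno1, rose in both lines. The neuronal enolase Eno2 rose by 1.99 in AML12 and 0.86 in Hepa 1-6, and the muscle enolase Eno3 by 0.89 and 1.59. The Eno3 ratios in Hepa 1-6 were -2.08 and -1.95 in controls and -0.42 and -0.44 in treated cells (SE 0.08, adjusted p = 4.73e-06), and in AML12 they were -1.49 and -1.62 against -0.60 and -0.73. Pkm, the pyruvate kinase of most tissues other than the adult liver, did not pass in either line, at -0.05 (adjusted p = 0.739) and -0.30 (adjusted p = 0.068).

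The lactate dehydrogenase subunits went apart. Ldha, the subunit that favours lactate, had mean ratios of -0.87 in AML12 controls and 0.26 with actinomycin D, a rise of 1.14 ± 0.09 (adjusted p = 2.11e-05), and of -0.04 and 0.27 in Hepa 1-6, a rise of 0.32 ± 0.09 (adjusted p = 0.017) that was lost without Hepa 1-6 control 1 (adjusted p = 0.056), control 2 (adjusted p = 0.075) or treated array 1 (adjusted p = 0.074). Ldhb, the heart subunit, was the member that fell in both lines. Its ratios went from -5.02 and -5.18 to -5.35 and -5.61 in AML12, a fall of 0.38 on the log2 scale (adjusted p = 0.024) that was lost without control 1 (adjusted p = 0.132) or treated array 2 (adjusted p = 0.139). In Hepa 1-6 they went from -4.92 and -4.78 to -5.78 and -5.71, a fall of 0.90 (adjusted p = 0.000415). Ratios this low may lie near the detection floor. Bpgm, which makes the bisphosphoglycerate that loosens oxygen from haemoglobin in red cells, rose in AML12 from 1.18 and 1.25 to 1.88 and 1.99, by 0.72 ± 0.06 (adjusted p = 4.02e-05). In Hepa 1-6 it fell from 1.76 and 1.76 to 1.03 and 1.08, a fall of 0.70 on the log2 scale (adjusted p = 6.28e-05).

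**Figure D3:**
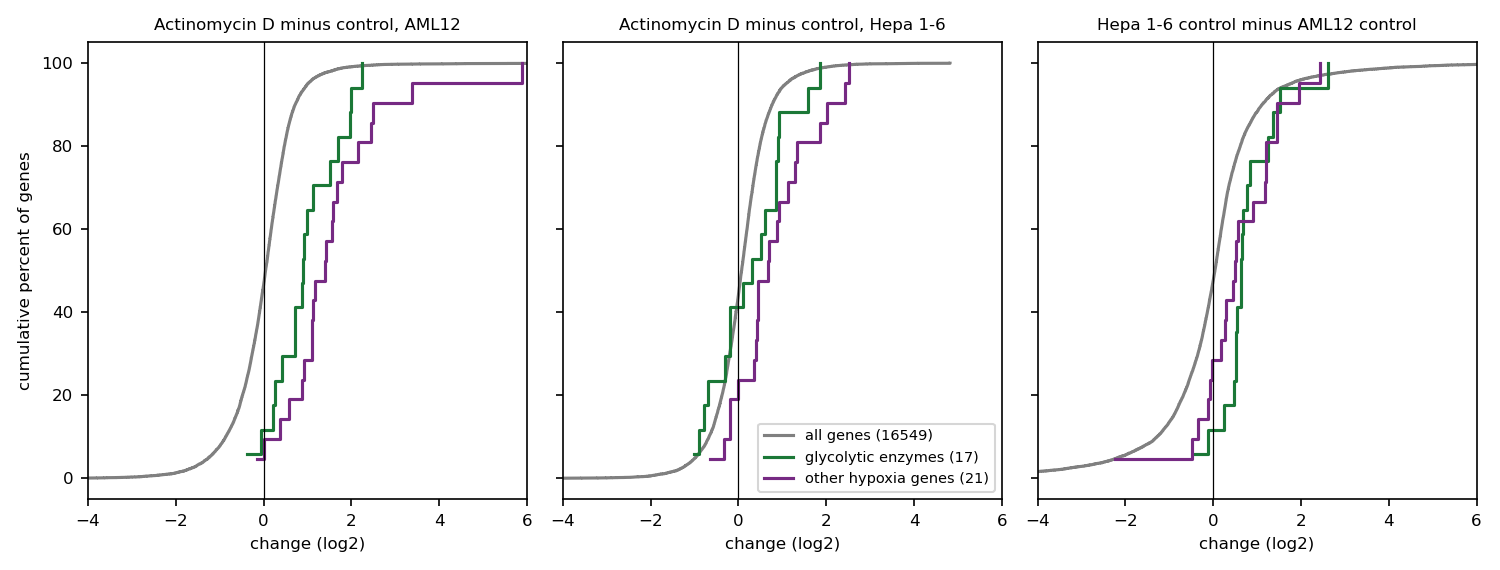
Cumulative percent of genes (vertical axis) by change (horizontal axis, log2) for the 17 glycolytic enzymes (green), the 21 other hypoxia genes (purple) and all 16549 genes (grey), under actinomycin D in AML12 (left) and Hepa 1-6 (middle) and between the control groups (right). The medians of the glycolytic enzymes were 0.89, 0.32 and 0.64 and those of the other hypoxia genes 1.39, 0.68 and 0.50, against 0.04, 0.07 and 0.04 over all genes.

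Read across the lines, 24 of the 38 members rose in both (63.2%), against 2683 of all genes (16.2%). They were all of the 24 risers of Hepa 1-6 and 24 of the 33 of AML12. Only Ldhb fell in both, and Tpi1, Bpgm and Slc16a3 passed in opposite directions. The changes of the 38 members in the 2 lines had a Pearson correlation of 0.645 and a Spearman correlation of 0.559, and those of all genes 0.559 and 0.544. These describe genes of the same arrays, which are not independent replicates.

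Whether the lines responded by different amounts was tested as an interaction, given as the Hepa 1-6 change minus the AML12 change. Of the 38 members, 22 were lower and 3 higher by this test, against 12.8% and 17.2% of all genes (30.0% in either direction), and the median difference was -0.69 against 0.03. Quantile normalization moved the split to 24 lower and 1 higher among the members, and to 2567 lower and 2285 higher among all genes. Without quantile normalization, the median was -0.78 over the glycolytic enzymes, 11 of which were lower and 1 higher, and -0.66 over the other hypoxia genes, with 11 lower and 2 higher. With the lowest 20% of mean ratios left out, it was -0.68 over the 10 glycolytic enzymes and -0.19 over the 7 other hypoxia genes that remained. Mgarp differed most, at -3.46 ± 0.31 (adjusted p = 0.000225). It was followed by Slc16a3 at -2.13 ± 0.12 (adjusted p = 3.58e-05) and Pfkp at -1.88 ± 0.15 (adjusted p = 0.000156). Pfkp had gone from -2.89 and -2.78 to -0.99 and -1.30 in AML12 and from -1.42 and -1.52 to -1.73 and -1.59 in Hepa 1-6. Ankrd37 at -1.73, Pdk1 at -1.57 and Bnip3 at -1.52 completed the largest differences towards AML12. The members with a positive difference past the threshold were Ndrg1 at 1.42 ± 0.20 (adjusted p = 0.00156), Eno3 at 0.70 ± 0.11 (adjusted p = 0.00275) and Vegfa at 0.42 ± 0.13 (adjusted p = 0.048). Vegfa, whose ratios went from -2.58 and -2.59 to -1.52 and -1.83 in AML12 and from -1.18 and -1.11 to 0.21 and 0.17 in Hepa 1-6, kept that call under only 3 of 21 alternative settings, losing it without any of 11 single arrays, with an adjusted p of up to 0.734 across alternatives. Members that did not pass this test included Egln3 at -0.48 (adjusted p = 0.096), Aldoc at -0.11 (adjusted p = 0.679), Pgk1 at 0.19 (adjusted p = 0.245), Higd1a at 0.12 (adjusted p = 0.55) and Pfkfb3 at 0.05 (adjusted p = 0.88), which does not show that they responded alike.

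At the serum-free baseline the genes were higher in Hepa 1-6. Of the 38 members, 27 were higher in Hepa 1-6 controls than in AML12 controls and 3 were lower, where 32.1% of all genes were higher and 29.8% lower (61.9% in either direction), and the median difference was 0.55 against 0.04. Among the glycolytic enzymes 14 of 17 were higher and 1 lower, with a median of 0.64, and among the other hypoxia genes 13 of 21 were higher and 2 lower, with a median of 0.50. Hk2 differed most, by 2.62 ± 0.12 (adjusted p = 3.35e-07), or 6.14-fold, and its ratios are given above. Mgarp was higher by 2.43, Ankrd37 by 1.96 and Vegfa by 1.44. Pfkl had ratios of -1.82 and -1.52 in AML12 controls and 0.04 and -0.32 in Hepa 1-6 controls, a difference of 1.53 ± 0.14 (adjusted p = 2.04e-05). P4ha1 stood at -2.89 and -2.91 against -1.48 and -1.41, a difference of 1.45 ± 0.10 (adjusted p = 3.33e-06).

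Of the 3 members that were lower in Hepa 1-6, Ndrg1 differed by -2.25 ± 0.14 (adjusted p = 2.24e-06), Eno3 by -0.46 ± 0.08 (adjusted p = 0.000929) and Pfkfb4 by -0.34 ± 0.09 (adjusted p = 0.011). The Pfkfb4 call missed the threshold under 3 of 21 alternatives, with an adjusted p of up to 0.210. Leaving out control 1 of AML12 or of Hepa 1-6 were among these alternatives. Pfkfb4 had ratios of -0.88 and -0.92 in AML12 and -1.26 and -1.21 in Hepa 1-6. Ndrg1 and Eno3 are also among the 3 members whose rise with actinomycin D was larger in Hepa 1-6 by the interaction test. The baseline and the responses share the control arrays, so the 2 sets of values are given side by side and not as separate evidence. Both HIF alpha subunits were higher in Hepa 1-6, Hif1a by 0.51 and Epas1 by 1.19 (adjusted p = 7.72e-05). Pkm was higher by 0.52 (adjusted p = 0.00481), but its 3 features gave 2.16, -0.27 and -0.31. Hk1 was higher by 0.76, but stood at -0.23 on its feature with the highest ratio.

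The gap between the lines depended on the condition in which they were read. The median of Hepa 1-6 minus AML12 over the members was 0.55 in controls and 0.72 with prolactin, with 30 and 31 of 38 members higher in Hepa 1-6. With actinomycin D it was -0.14, with 17 of 38 higher. Over all genes these medians were 0.04, 0.07 and 0.05. The Ldha means show this: -0.87 in AML12 and -0.04 in Hepa 1-6 controls, and 0.26 and 0.27 with actinomycin D.

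**Figure D4:**
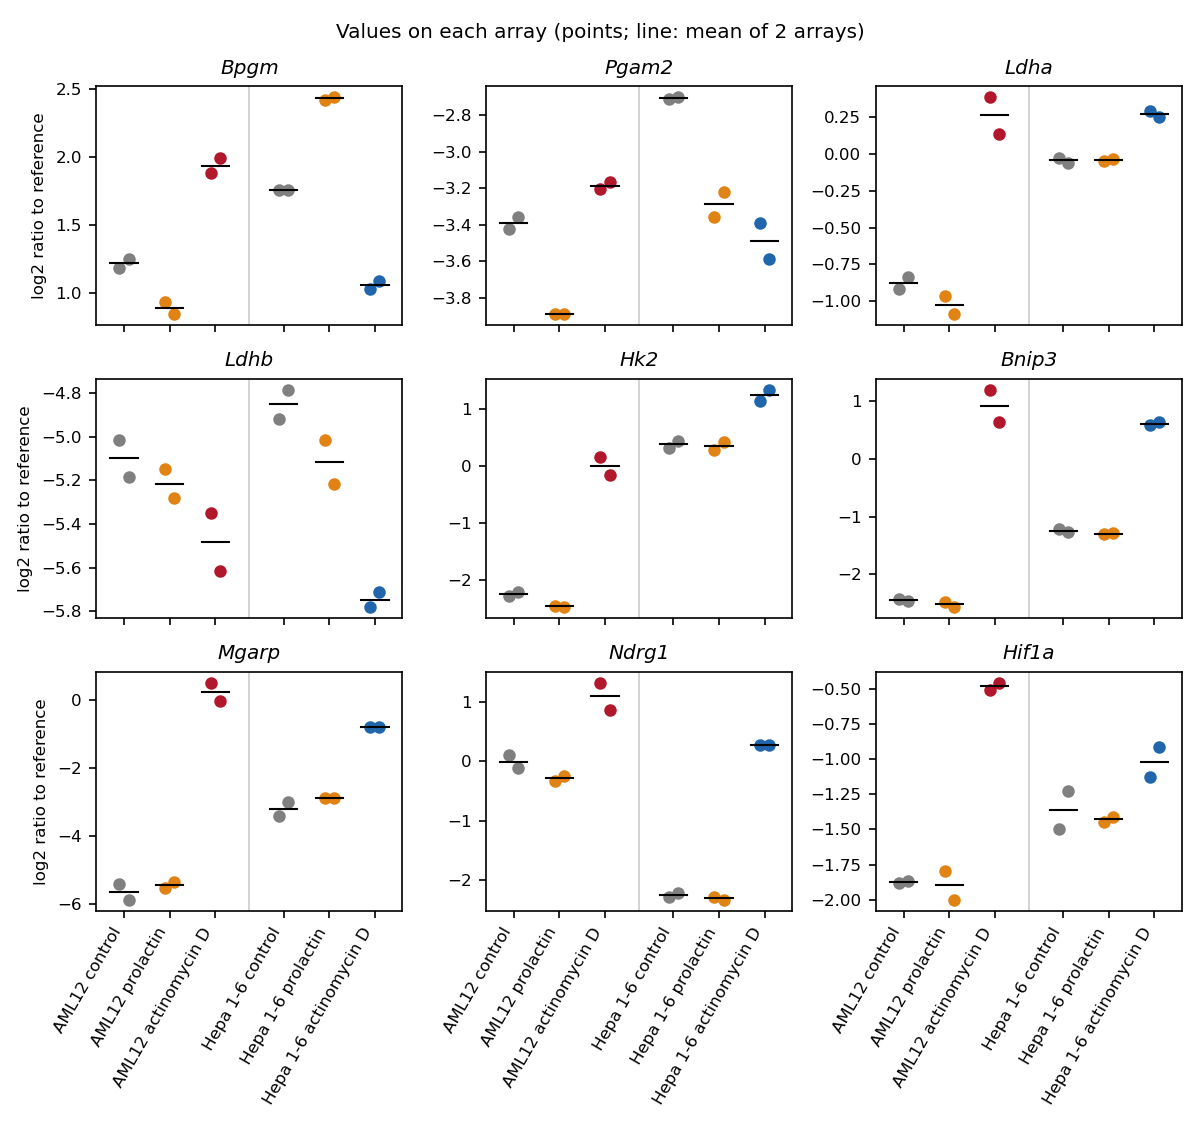
Log2 ratio to the reference (vertical axis, a scale of its own in each panel) of 9 genes on each array (points) in the 6 groups (horizontal axis), with the mean of 2 arrays as a line. Bpgm rose with prolactin in Hepa 1-6 from 1.76 to 2.43 while its AML12 prolactin arrays lay below controls, Ldha reached 0.26 and 0.27 with actinomycin D in the lines, and Mgarp, Bnip3 and Hk2 with prolactin lay close to their controls.

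Prolactin changed few of these genes. In AML12, 1 of the 38 members was lower and 0 higher, against 0.550% and 0.719% of all genes (1.27% in either direction), and 7 of 38 (18.4%) had an unadjusted p under 0.05, as did 16.9% of all genes. In Hepa 1-6, 1 was higher and 0 lower, against 0.0302% and 0.00604% of all genes (0.0363% in either direction), and 2 of 38 (5.26%) had an unadjusted p under 0.05, as did 8.21% of all genes. The median change over the members was -0.07 and -0.04, and quantile normalization turned the AML12 medians of the glycolytic enzymes and the other hypoxia genes to 0.02 and 0.08. Every change of the 21 other hypoxia genes missed the threshold in both lines, with a smallest adjusted p of 0.109 in AML12 and 0.734 in Hepa 1-6. Hif1a stood at -0.02 with an adjusted p of 0.948 in AML12 and at -0.07 with an adjusted p of 0.937 in Hepa 1-6.

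Bpgm was the member that prolactin raised, in Hepa 1-6. Its ratios in Hepa 1-6 were 1.76 and 1.76 in controls and 2.42 and 2.44 with prolactin, which is 0.67 ± 0.06 higher (adjusted p = 0.031), or 1.60-fold. In AML12 they were 1.18 and 1.25 in controls and 0.94 and 0.85 with prolactin, a difference of -0.33 ± 0.06 that did not pass (adjusted p = 0.057). The prolactin arrays lay above both controls in Hepa 1-6 and below both in AML12, which with 2 arrays per group is a description and no test. The difference between the lines' responses was 1.00 ± 0.09 (adjusted p = 0.00829), the single member past the threshold of this interaction, where 0.0544% of all genes were higher and 0.0665% lower (0.121% in either direction). The 2 Bpgm features gave 0.64 and 0.71 in Hepa 1-6 and -0.33 and -0.33 in AML12. Leaving out AML12 control 2 (adjusted p = 0.051) or Hepa 1-6 prolactin 1 (adjusted p = 0.058) lifted the interaction's adjusted p over the threshold, and the Hepa 1-6 call itself missed it under 13 of 22 alternatives, with an adjusted p of up to 0.457. Within each line, prolactin and actinomycin D moved the Bpgm means to opposite sides of the same controls, at -0.33 and 0.72 in AML12 and 0.67 and -0.70 in Hepa 1-6.

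Pgam2 was lower with prolactin in AML12. Its ratios were -3.42 and -3.36 in controls and -3.89 and -3.89 with prolactin, a fall of 0.50 on the log2 scale (SE 0.08, adjusted p = 0.033). In Hepa 1-6 they were -2.71 and -2.70 against -3.36 and -3.22, a difference of -0.58 ± 0.08 that did not pass (adjusted p = 0.099). The difference between the lines' responses was -0.08 and did not pass either. The prolactin arrays lay below both controls in each line, an order that groups of 2 arrays reach readily and that is no test. The AML12 call missed the threshold under 13 of 21 alternatives, 10 of which left out 1 array, with an adjusted p of up to 0.228. The members next in order did not pass. Egln3 in AML12 had ratios of -2.16 and -2.52 with prolactin, a change of -0.54 ± 0.14 (adjusted p = 0.109), and the interaction of 0.59 also missed (adjusted p = 0.333). Ldhb in Hepa 1-6 had ratios of -5.02 and -5.22 with prolactin, a change of -0.27 (adjusted p = 0.609). Pgam1 had ratios of -0.88 and -0.99 in AML12 and -0.09 and -0.12 in Hepa 1-6 with prolactin, against -0.70 and -0.65 and -0.23 and -0.19 in controls, and an interaction of 0.37 (adjusted p = 0.36).

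Other genes of the same pathways, taken from 2 further lists, moved in both directions under actinomycin D. Beside both lists, 28.0% of all genes rose and 25.5% fell in AML12, and 27.9% rose and 23.0% fell in Hepa 1-6. Of 27 measured genes of glycolysis, gluconeogenesis and pyruvate use that are no members, 16 rose and 4 fell in AML12. In Hepa 1-6, 11 rose and 3 fell. The glucose transporter Slc2a1 rose by 2.12 and the glycogen branching enzyme Gbe1 by 2.11 in AML12. Gbe1 (2.05) and the hexokinase-like gene Hkdc1 (2.01) rose most in Hepa 1-6. Pdk4, a relative of Pdk1 that is induced by fasting, fell by 0.86 on the log2 scale in AML12 and rose by 1.40 in Hepa 1-6, and Pdk3 of the same family fell by 0.59 in Hepa 1-6. The glycolytic enzyme gene Gapdh fell most, with changes of -3.04 in AML12 and -4.22 in Hepa 1-6. It was read on a single feature, which carries no RefSeq mRNA accession, and the part of this in the fall was not tested. Of 31 measured other genes of oxygen sensing and hypoxia, 15 rose and 9 fell in AML12 and 13 rose and 11 fell in Hepa 1-6. Plod2, a lysyl hydroxylase of collagen, rose by 3.18 in AML12, and Ero1a, an oxidase of the endoplasmic reticulum, by 3.07 in AML12 and 2.67 in Hepa 1-6, where the nuclear receptor gene Rora also rose by 1.60. Angptl4, a secreted lipase inhibitor, fell by 3.01 on the log2 scale in AML12. Cited2, a transcriptional regulator that limits HIF activity, fell by 2.51 in AML12 and by 1.43 in Hepa 1-6, where Lox, the lysyl oxidase, fell by 0.85.

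At baseline these lists were mixed as well. Of the 27, 7 were higher in Hepa 1-6 and 14 lower, and of the 31, 16 were higher and 9 lower. Over all genes, 32.1% were higher and 29.8% lower. Gapdh (2.10) and Slc2a1 (1.75) were the most raised of the first list in Hepa 1-6, and the monocarboxylate transporter Slc16a7 (-4.38) and Pdk3 (-2.99) the most lowered. In the second list the hormone gene Stc1 (6.82) and Arnt2 (5.50), a partner of the HIF alpha subunits, were highest in Hepa 1-6, and Plod2 (-2.05) and Stc2 (-1.86) lowest. With prolactin, Pdk4 rose by 1.04 ± 0.11 (adjusted p = 0.011) and Angptl4 by 0.66 ± 0.09 (adjusted p = 0.022) in AML12, and no gene of either list passed in Hepa 1-6, with a smallest adjusted p of 0.323.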

How the data were processed

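Total RNA of AML12 and Hepa 1-6 cells was extracted with Trizol and hybridised to two-colour Agilent mouse arrays, 1 per sample, per the labels' protocols. Samples carried Cy5 and the reference Cy3 on all 12 arrays, per the labels, with no dye swap; the labels' labelling text, which is cut short, names Cy3. The values were made by the authors with Agilent Feature Extraction, as the submitters' processing notes say; the sources used here do not give its version, settings or log base. The deposited values were taken as log10 ratios of sample over reference, the convention of that software, and ran from -3.12 to 2.94. In base 2, every log2 value printed would be divided by 3.32, and signs and p-values would stay.

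Exact zeros (12.7% of values) were treated as no ratio. The deposited log10 ratios were converted to log2 with no further scaling. Of the 35664 features that had a ratio on every array, those with 1 symbol in the platform annotation (28519) were averaged per gene. Of all features, 33653 had 1 symbol (99.6% of these found in the reference gene table by Entrez identifier), 56 several and 11309 none. No member feature held an exact zero. Background and saturation marks were not used.

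Genes were tested by limma's lmFit, contrasts.fit and eBayes (version 3.58.1 under R 4.3.3, two-sided) in 1 model with a mean for each of the 6 groups, with 6 residual and 1.84 prior degrees of freedom, Benjamini-Hochberg adjustment over 16549 genes and a threshold of 0.05, in 7 comparisons. The fit was tested on simulated data. Figures were drawn with matplotlib 3.10.9, and tables with pandas 2.3.3 and numpy 2.4.6 under Python 3.11.15. Comparisons within a line share their control arrays.

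The members, lists and tests were chosen with earlier results of these data known. Values on every array are given for members past the threshold under prolactin, for the 6 largest rises and falls past it in the other comparisons, and for the 3 members with the smallest p where fewer than 2 passed under prolactin. Of the other pathway genes, up to 2 rises and 2 falls per list and comparison are named. Alternatives were median centring, quantile normalization, a looser feature filter, exact zeros kept as a ratio of 1, leaving out the lowest 20% of mean ratios, each gene's feature of highest mean ratio, a replicate block, a robust prior, the compared groups only, and each array left out in turn. Using only features with a RefSeq mRNA accession was added after seeing the data.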

Additional observations from a re-analysis of the deposited data

Results flagged for a closer look

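The results below were picked out because the responses of the 2 lines differed by the test of the interaction itself, with the difference given as the Hepa 1-6 change minus the AML12 change on the log2 scale. Their causes were not tested.

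Under prolactin this held for Bpgm, at 1.00 (adjusted p = 0.00829). Its prolactin arrays lay above both controls in Hepa 1-6 and below both in AML12.

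Under actinomycin D the glycolytic enzymes with a negative difference were Pfkp (-1.88), Bpgm (-1.42), Hk2 (-1.38), Tpi1 (-1.26), Pfkl (-1.18), Eno2 (-1.14), Pgam2 (-0.98), Ldha (-0.82), Pgam1 (-0.78), Aldoa (-0.57) and Ldhb (-0.51). A negative difference is not always a smaller response. Bpgm and Tpi1 rose in AML12 and fell in Hepa 1-6. Pgam2 did not pass in AML12 and fell in Hepa 1-6. Ldhb fell further in Hepa 1-6 (-0.90) than in AML12 (-0.38). Eno3 rose more in Hepa 1-6 (0.70). The RefSeq feature of Tpi1 and its other feature disagreed in Hepa 1-6, at 0.20 and -2.21.

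Of the regulators and lactate transporters, Pdk1 (-1.57) and Slc16a1 (-0.66) rose less in Hepa 1-6. Slc16a3 (-2.13) rose in AML12 and fell in Hepa 1-6. Among the other HIF targets the change was smaller in Hepa 1-6 for Mgarp (-3.46), Ankrd37 (-1.73), Bnip3 (-1.52), Adm (-1.16), Egln1 (-0.99), Bnip3l (-0.73) and P4ha1 (-0.46), and among the alpha subunits for Hif1a (-1.05). Ndrg1 (1.42) and Vegfa (0.42) responded more in Hepa 1-6. The AML12 actinomycin D arrays, which enter all of these differences, were further apart than those of other groups: the median absolute difference between replicates over the members was 0.266, against 0.059 to 0.104, and array 1 lay above array 2 for 34 of the 38 members. The part of this in the differences was not tested beyond leaving out each array. The calls of Ldhb, P4ha1, Adm and Aldoa missed the threshold under 16, 12, 6 and 5 alternatives, and that of Vegfa under 18.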

How the results depend on the processing

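Of the calls among members, 29 of 34 for actinomycin D in AML12, 23 of 30 in Hepa 1-6, 19 of 25 for the line difference and 25 of 30 at baseline kept direction and threshold in every alternative that tested them; none of the 3 prolactin calls did. Leaving out the genes in the lowest 20% of mean ratios left 17 members, by construction, of which 15, 14, 10 and 15 passed in these 4 comparisons. Leaving out 1 array gave 31 to 34, 25 to 31, 20 to 26 and 28 to 31 members past the threshold, and 0 to 1 in each prolactin comparison and its line difference.

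For prolactin in AML12 the count of 1 became 0 with quantile normalization, without the lowest 20%, with the compared groups only and with the replicate block (10, 4, 8 and 8 members at an unadjusted p under 0.05 in limma, beside 18.1%, 17.3%, 14.0% and 16.3% of all genes), and 2 with exact zeros kept or RefSeq features only. In Hepa 1-6 it became 0 with the highest feature, the compared groups only and the replicate block (2, 2 and 3 unadjusted, beside 7.73%, 9.21% and 7.83%). Correlations of same-numbered deviations ran from -0.05 to 0.16. With 2 arrays per group these cannot exclude that replicate numbers pair the samples, so pairing stays unknown. The replicate block left 1 member in the line difference under prolactin.

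Directions reversed for Tpi1 with actinomycin D in AML12 (-0.26, highest feature) and in Hepa 1-6 (0.20, RefSeq features only), for Vegfa in the line difference (-0.11, highest feature), and at baseline for Hk1 (-0.23, highest feature) and Pkm (-0.31, RefSeq features only). These alternatives read other features; the cause was not tested. Groups of 2 arrays and the unknown detection floor limit what can be told for genes far below the reference, such as Ldhb, Adm and Mgarp.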

Other observations

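Under actinomycin D, features of 1 gene changed in opposite directions for Tpi1, Pkm and Epas1 in AML12 and for Pfkp, Tpi1, P4ha2 and Epas1 in Hepa 1-6. For Pfkp, the 2 features annotated with a RefSeq mRNA differed in Hepa 1-6, at -0.92 and 1.09. Of the 77 member features with a RefSeq mRNA accession, 2 changed downwards in AML12 and 10 in Hepa 1-6 under actinomycin D, and their median changes were 0.99 and 0.86. Of the other 9 member features, 3 and 6 changed downwards, with medians of 0.24 and -0.72. Over all genes, 44.7% of features with an accession and 52.4% of those without changed downwards in AML12, and 41.8% and 52.0% in Hepa 1-6. These counts were noticed in the data and not tested.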
